A study of Mus musculus with 10 samples.

Results

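8 transcription factors of the granulocyte lineage, given by symbol as Cebpa, Cebpb, Cebpd, Cebpe, Spi1, Gfi1, Runx1 and Fli1, were looked up among 17097 genes measured in blood neutrophils of the mouse. A probe set, the group of array probes that reads 1 transcript, was found for 7 of them, and where a gene had several, the brightest by its mean of 10 arrays was taken. Cebpe was not analysed here. Of the 7, all but Gfi1 had a mean log2 signal above 4.58, the median of all probe sets, and were among the 10734 genes tested. All donors were untreated males of the C57BL/6 strain, 3 months old, kept for 9 days in the facility beforehand. In the individual group, the blood of 5 mice was kept apart, with 1 array per mouse (mouse 1 to mouse 5). In the pooled group, the blood of 5 other mice was mixed and divided into 5 portions before the cells were isolated (pool 1 to pool 5), so these arrays are technical replicates of 1 sample and carry no difference between mice. Cells were captured with magnetic beads by Ly6G, a surface protein of mouse neutrophils, to a purity of 71.5% to 99.5%, given as a range over all samples and not for each one.

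Granulocytes mature in the bone marrow from a granulocyte-monocyte progenitor, and the factors that drive this act in sequence. C/EBP alpha, encoded by Cebpa, opens the granulocyte programme in progenitors, Gfi1 represses monocyte and progenitor genes around the promyelocyte stage, and Runx1 with its partner Cbfb acts from the stem cell onward and at genes of the primary granules. C/EBP epsilon is needed for the secondary granules, and C/EBP beta and C/EBP delta (Cebpb and Cebpd) are known for late maturation, for emergency granulopoiesis and for the response of mature cells to inflammatory signals. PU.1, encoded by Spi1, and Fli1 belong to the Ets family, which binds a GGAA core, and are made from progenitor to mature cell. PU.1 controls myeloid receptor and oxidase genes, and Fli1 is also a main factor of megakaryocytes, the parents of platelets. Cebpa, Gfi1 and Runx1 are called early factors here, Cebpb and Cebpd later factors.

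The promoters of the early factor Cebpa and of its later relative Cebpb are shown because these relatives stand at either end of the early to late order. Each stretch is the 250 bases before the annotated start in RefSeq, build GRCm38.p6, plus strand, at chr7:35119043-35119292 for Cebpa and chr2:167688665-167688914 for Cebpb, with matches to TATAAA or TGACG, on either strand, in capitals.
Cebpa: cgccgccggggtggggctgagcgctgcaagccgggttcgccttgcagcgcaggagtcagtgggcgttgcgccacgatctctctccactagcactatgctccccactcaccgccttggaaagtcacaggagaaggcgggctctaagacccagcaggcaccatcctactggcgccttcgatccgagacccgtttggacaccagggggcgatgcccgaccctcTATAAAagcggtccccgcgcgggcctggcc
Cebpb: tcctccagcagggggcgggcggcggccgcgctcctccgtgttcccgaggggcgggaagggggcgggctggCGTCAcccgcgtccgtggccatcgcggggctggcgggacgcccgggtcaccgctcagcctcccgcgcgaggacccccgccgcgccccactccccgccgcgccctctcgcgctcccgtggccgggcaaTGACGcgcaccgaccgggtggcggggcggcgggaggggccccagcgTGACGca
The Cebpa stretch held 1 match to TATAAA, 30 bases before the start, and no match to TGACG, a core of the sites that CREB binds. The Cebpb stretch held 3 matches to TGACG, beginning 180, 53 and 7 bases before the start, and no match to TATAAA. GC made up 66.4% of the Cebpa stretch and 81.6% of the Cebpb stretch, against a median of 52.4% over 32851 promoters. Of these promoters, 12.4% held TATAAA and 17.8% held TGACG. The remaining 3 motifs were searched on both strands. GGGCGG, the core of the Sp1 site, was found 5 times in Cebpb and not in Cebpa (32.7% of promoters held it), while CCAAT (33.8%) and the C/EBP-type TTGCNNAA (9.56%) matched neither stretch. A pair of the GGGCGG matches in Cebpb share bases with each other, and none of the matches shares bases with a match to another motif. A match is a run of letters, and no binding was measured.

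Arrays give no counts, and the number of arrays, 5 in a group, limits the precision of every value. Mouse 5 stood apart in most genes. Its 95th percentile of log2 signal was 7.46, against 8.72 to 9.25 on the other arrays, and over all probe sets (no independent replicates) it correlated with them at 0.738 to 0.800. Leaving mouse 5 aside, the correlations of mouse 4 were 0.900 to 0.939, and those among the other 8 arrays 0.949 to 0.994. The excess of 3′ over 5′ signal in the control probes for Actb was 4.57 in mouse 5 and 4.41 in mouse 3, while the other 8 arrays had 1.28 to 2.72. For Gapdh it was lowest in mouse 5, at 3.05, and highest in mouse 3, at 6.16, with 3.38 to 5.74 on the other arrays. Of the neutrophil markers, 5 of 7 were measured, all above the median of all probe sets. Their mean level was 10.12 in mouse 5, against 11.90 to 12.18 in mice 1 to 4 and 11.54 to 12.33 in the pool. Cxcr2, Mmp9 and Csf3r were low in mouse 5, at 6.67, 8.38 and 9.68. S100a8 and S100a9 varied little, with SDs of 0.16 and 0.11 among the mice and 0.25 and 0.22 in the pool. The part of the marker level in the low factors of mouse 5 was not tested. The tests of the factors are therefore given with mouse 5, without it and without mice 4 and 5. In RNA from a whole cell preparation, fewer cells of a type and less RNA per cell cannot be told apart. All values below are log2 signals as the authors deposited them, and levels of different genes are not compared, since each probe set has its own brightness.

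The early factor Cebpa (Entrez gene 12606) stayed within a narrow range on 8 arrays and was lower in mouse 5 and pool 5. From mouse 1 to mouse 5 it read 5.94, 6.04, 6.08, 6.01 and 5.46, and from pool 1 to pool 5 it read 5.97, 5.99, 6.05, 5.91 and 5.55. The groups overlapped. Mice 1 to 4 lay within 0.14 of each other, with an SD of 0.06. The SD of the pool was 0.20, and 0.06 without pool 5.

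Gfi1, a zinc finger repressor (Entrez gene 14581), had mouse values of 4.44, 4.04, 4.28, 4.11 and 4.68 and pool values of 4.07, 4.28, 4.27, 4.21 and 3.95. Only mouse 5, the array with the lowest 95th percentile of signal, reached the median of all probe sets. Gfi1 was the 1 of the 7 factors for which mouse 5 was the highest array. At this level the probe set gives little room to see a decrease. Runx1, the Runt domain factor (Entrez gene 12394), had mouse values of 6.36, 6.20, 6.36, 5.99 and 5.79 and pool values of 6.81, 6.45, 6.09, 6.47 and 6.43. The SD of Runx1 was 0.25 in each group, mice 4 and 5 lay below the pool, and mice 1 to 3 lay inside its range.

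**Figure D1:**
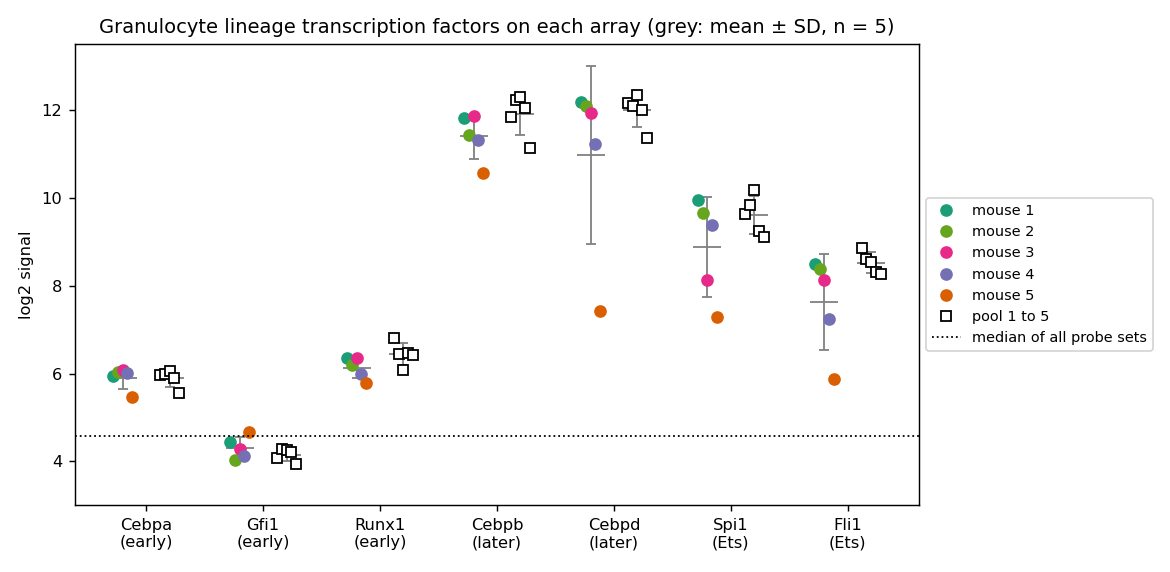
Log2 signal (vertical axis) of the 7 factors on each array, with mice as coloured circles, pool arrays as open squares, the mean ± SD of each group (n = 5) in grey and the median of all probe sets, 4.58, as a dotted line. Mouse 5 lay far below the others in Cebpd (7.42), Spi1 (7.28) and Fli1 (5.88).

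Of the later factors, Cebpb (Entrez gene 12608) had mouse values of 11.82, 11.42, 11.85, 11.32 and 10.57 and pool values of 11.84, 12.22, 12.29, 12.05 and 11.13. The groups overlapped, 4 of the mice lay inside the range of the pool, and mouse 5 lay below it. Cebpd (Entrez gene 12609) had mouse values of 12.17, 12.08, 11.94, 11.23 and 7.42 and pool values of 12.16, 12.10, 12.34, 12.00 and 11.36. Mice 1 to 3 were inside the pool's range, mouse 4 was just below pool 5, and mouse 5 was far below every array. Cebpd in mouse 5 was 23.8-fold below the pool mean, and 1.06% of tested genes lay farther below it on that array, whereas Cebpb was 2.52-fold below the pool mean, with 30.8% of genes farther below. The SD of Cebpd among mice was 2.02 with mouse 5 and 0.43 without it, against 0.37 in the pool.

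The Ets factor Spi1 (Entrez gene 20375) was low in a pair of mice. Its mouse values were 9.95, 9.66, 8.13, 9.38 and 7.28 and its pool values 9.63, 9.83, 10.18, 9.25 and 9.11. Mouse 3 and mouse 5 lay below the pool, mice 1, 2 and 4 inside its range. In mouse 3, Spi1 was 2.77-fold below the pool mean, where 2.94% of tested genes lay farther below, and the median gene of that array differed from the pool by 0.01. Fli1 (Entrez gene 14247) had mouse values of 8.50, 8.37, 8.12, 7.25 and 5.88 and pool values of 8.87, 8.62, 8.53, 8.32 and 8.26. Mice 1 and 2 lay inside the range of the pool and mice 3, 4 and 5 below it. Fli1 was 2.41-fold below the pool mean in mouse 4, with 10.2% of genes farther below, and 6.25-fold in mouse 5, with 11.6%.

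The study compared the spread between mice with the technical spread of the pool. Among the 6 factors tested, Cebpd, Spi1 and Fli1 varied more between mice than between pool arrays, while Cebpa, Runx1 and Cebpb did not pass. In the moderated variance test of limma over all genes, 66.9% of the 10734 genes passed at an adjusted p under 0.05, so that 3 of 6 is no larger a share than that of all genes. The variance among mice was 37.5 times the technical variance for Cebpd (limma adjusted p = 9.19e-05), 12.5 times for Fli1 (limma adjusted p = 0.00137) and 8.72 times for Spi1 (limma adjusted p = 0.00445). It was 1.97 times for Cebpb (limma adjusted p = 0.203), 1.58 times for Cebpa (limma adjusted p = 0.286) and 1.04 times for Runx1 (limma adjusted p = 0.466). Gfi1 entered this test only without the filter on low signals, where 64.1% of 17097 genes passed, with a ratio of 3.61 (limma adjusted p = 0.0603).

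None of the 6 kept a call when mouse 5 was left out. The share of all genes that passed then was 19.5%, and without mice 4 and 5 it was 0.671%. Without mouse 5 the ratio for Spi1 was 4.37 (limma adjusted p = 0.102, 0.0283 before adjustment), that for Fli1 3.33 (adjusted p = 0.167) and that for Cebpd 1.69 (adjusted p = 0.413). Without mice 4 and 5 the ratio for Spi1 was 6.51 (limma adjusted p = 0.329, 0.013 before adjustment), and those for Cebpd and Fli1 were 0.126 and 0.391, below 1. For Cebpb, Runx1 and Cebpa the ratios were 0.552, 0.526 and 0.0887 without mouse 5 and 0.428, 0.143 and 0.133 without mice 4 and 5. Leaving out pool 5, which read lowest of the pool in every measured factor but Runx1, raised several ratios and added a call. The ratio for Cebpd was then 176 (limma adjusted p = 9.84e-05), that for Spi1 13.2 (limma adjusted p = 0.00471) and that for Fli1 18.3 (limma adjusted p = 0.00233). Cebpb then had a ratio of 8.66 (a log2 ratio of 3.11 in place of 0.98) and passed (limma adjusted p = 0.0124), Cebpa had 2.56 (limma adjusted p = 0.153), and 66.2% of all genes passed.

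**Figure D2:**
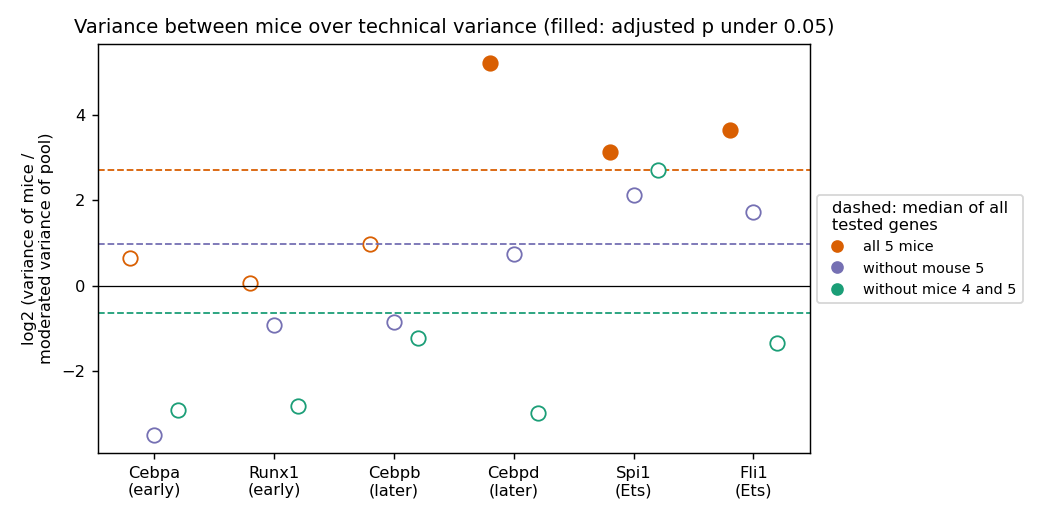
Log2 ratio of the variance between mice to the moderated variance between pool arrays (vertical axis) for the 6 tested factors, with all 5 mice, without mouse 5 and without mice 4 and 5; filled points passed at an adjusted p under 0.05, and dashed lines give the median of all tested genes in the same colours (2.72, 0.98 and -0.65). Only Cebpd, Spi1 and Fli1 are filled, and only with all 5 mice.

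The mean levels of the factors in the mice were mostly below the pool, by less than the spread between mice could resolve. The difference, mice minus pool, was -1.02 ± 1.01 (SE) for Cebpd, -0.90 ± 0.62 for Fli1, -0.72 ± 0.67 for Spi1, -0.51 ± 0.40 for Cebpb, -0.31 ± 0.24 for Runx1 and 0.01 ± 0.23 for Cebpa. No factor passed (limma adjusted p = 0.999 for each of the 6), and 0% of all genes did, with 568 genes (5.29%) at an unadjusted p under 0.05. The pool is 1 sample, and this test assumes that it varies like a mean of 5 mice. Without mouse 5 the difference was -0.13 ± 0.24 for Cebpd, -0.46 ± 0.33 for Fli1, -0.32 ± 0.43 for Spi1, -0.30 ± 0.19 for Cebpb, -0.22 ± 0.18 for Runx1 and 0.12 ± 0.16 for Cebpa. Without mice 4 and 5 it was 0.08 ± 0.13 for Cebpd, -0.19 ± 0.17 for Fli1, -0.35 ± 0.48 for Spi1, -0.21 ± 0.17 for Cebpb, -0.14 ± 0.12 for Runx1 and 0.13 ± 0.11 for Cebpa.

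Set against the mean of the pool, the early factors departed less than the later ones in mice 4 and 5, as they also did in pool 5. The mean departure of Cebpa, Gfi1 and Runx1 was 0.08, -0.07, 0.07, -0.13 and -0.19 in mice 1 to 5. That of Cebpb and Cebpd was 0.05, -0.20, -0.05, -0.67 and -2.95, and that of Spi1 and Fli1 was 0.17, -0.04, -0.93, -0.75 and -2.48. Later minus early, from the first mouse to the last, was -0.03, -0.12, -0.12, -0.55 and -2.76, while in the pool, where only technique differed, it ran from -0.52 in pool 5 to 0.40 in pool 3. Mice 1 to 3 thus lay inside the range of the technical replicates, mouse 4 just beyond it and mouse 5 far outside. The early mean of mouse 5 was held up by Gfi1 (0.52), and without Gfi1 it was -0.55. The Runx1 part of both values comes from the chosen probe set, and the Runx1 probe sets did not all fall in mouse 5. Later minus early without Gfi1 was 0.07, -0.15, -0.10, -0.50 and -2.41 in the mice. The pool arrays then ran from -0.52 to 0.47, and mouse 4 was inside their range. The early factors read nearer the median of all probe sets, and mouse 5 had a low 95th percentile of signal. Not every bright gene was low in mouse 5, since S100a8 and S100a9 varied little among the mice. The stage at which a factor acts and its signal level cannot be told apart here, and the part of either was not tested. The later pair also differed within itself, since in mouse 5 the departure of Cebpd minus that of Cebpb was -3.24.

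**Figure D3:**
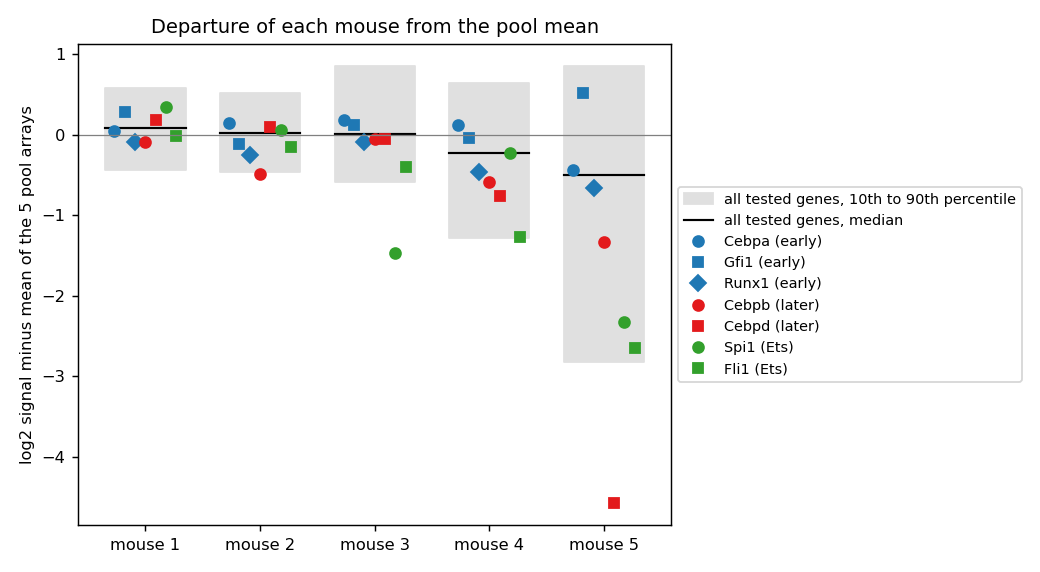
Log2 signal of each factor minus the mean of the 5 pool arrays (vertical axis) in each mouse, with early factors in blue, later factors in red and Ets factors in green; the grey band spans the 10th to 90th percentile of all tested genes and the black line is their median. Spi1 lies below the band in mouse 3 (-1.47), Cebpd in mouse 5 (-4.57) and Cebpb just below it in mouse 2 (-0.49).

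Bringing the arrays to 1 common distribution by a second quantile normalization left the low Cebpd of mouse 5 in place. On that scale mouse 5 had 8.82 for Cebpd, against 11.56 to 12.38 among the other mice, and 6.41 for Fli1, against 7.40 to 8.32. Runx1 read 6.24 in mouse 5 on this scale, the highest of the mice. Gfi1 read 4.49 in mouse 5 and 4.48 in mouse 1. Spi1 then read 7.84 in mouse 3 and 8.67 in mouse 5, against 9.46 to 9.95 in mice 1, 2 and 4 and 9.09 to 9.80 in the pool. For Spi1, both mice were therefore below all other arrays on both scales, and mouse 5 was no longer the lowest.

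The 7 factors had 15 probe sets in all, and where a factor had more than 1, these did not always move together. For Cebpb, a probe set listed with accession AB012278 (1427844_PM_a_at) had mouse values of 9.41, 9.02, 7.83, 8.43 and 5.15 and pool values of 8.24 to 10.48, so that mouse 3 was low there and not in the probe set above. Its variance ratio passed (log2 ratio 3.07, limma adjusted p = 0.00751 with every probe set tested on its own), where 63% of 22513 probe sets did, but not without mouse 5 (limma adjusted p = 0.49). Another Cebpb probe set (1427843_PM_at) had mouse values of 6.56, 6.12, 6.17, 5.97 and 5.84 and pool values of 6.62 to 8.21, without overlap. Its mean difference was -1.06 ± 0.25 (SE, limma adjusted p = 0.276), and 4.76% of probe sets had all mice below all pool arrays.

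Runx1 had 6 probe sets, and mouse 3 was the highest array of one and the lowest of another. The probe set 1422864_PM_at gave mouse 3 7.26, the other mice 5.43 to 6.08 and the pool 5.95 to 6.50, and it passed the variance test with and without mouse 5 (limma adjusted p = 0.0046 and 0.0117, where 63% and 17.7% of probe sets passed). The probe set 1427650_PM_a_at gave mouse 3 4.88, the other mice 5.08 to 5.88 and the pool 5.80 to 6.80. Its mean difference, mice minus pool, was -0.97 ± 0.26 (SE, limma adjusted p = 0.367). In 1422865_PM_at all mice, at 4.47 to 5.35, lay below the pool, at 5.39 to 5.94, as in 4.76% of probe sets. The mean difference there was -0.49 ± 0.22 (SE, limma adjusted p = 0.9999). A Runx1 probe set near the median signal (1452530_PM_a_at) was highest in mouse 5, at 6.00, against 4.51 to 5.14 in the other mice. It passed the variance test with mouse 5 (limma adjusted p = 0.000715) and not without it (limma adjusted p = 0.117). Its mean difference was 0.52 ± 0.33 (SE), and that of 1452531_PM_at was 0.15 ± 0.21, both with the mice above the pool. For Runx1 no single direction in mouse 3 or mouse 5 can be given. The second Fli1 probe set (1433512_PM_at) had mouse values of 7.15, 7.41, 7.66, 7.11 and 3.44 and pool values of 7.24 to 8.09, so the low value of mouse 5 was seen in both Fli1 probe sets and the low value of mouse 4 clearly in one. Cebpa, Cebpd, Spi1 and Gfi1 had 1 probe set each, and for them no such check was possible. The 3′ to 5′ control difference was the highest or nearly so in mouse 3 for both Actb and Gapdh and in mouse 5 for Actb alone, and its share in these differences was not tested.

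**Figure D4:**
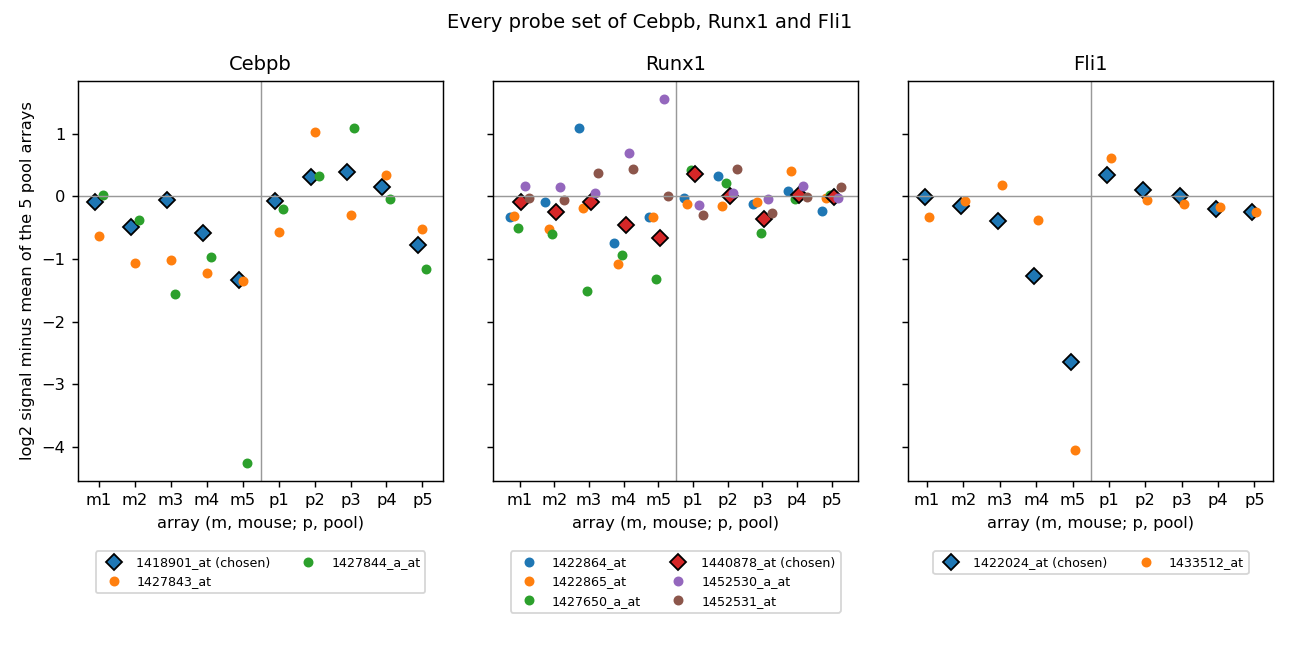
Log2 signal minus the mean of the 5 pool arrays (vertical axis) for every probe set of Cebpb, Runx1 and Fli1 on each array (horizontal axis), with the probe set that stands for the gene as an outlined diamond. Probe sets of Cebpb and those of Runx1 part in mouse 3 and mouse 5.

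Genes whose pattern over the arrays came closest to each factor were found by the root mean square difference of values centred on each gene's mean. For Cebpd these were Rgl2, at 0.07 over the 10 arrays, and Rflnb, at 0.12, against a spread of 1.40 of Cebpd about its own mean. In mouse 5, Rgl2 read 5.20, against 9.21 to 10.07 in the other mice. For Spi1 they were Rabac1 at 0.21 and Snx20 at 0.24, which read 5.98 and 7.16 in mouse 3 and 4.70 and 6.06 in mouse 5. For Fli1 they were Hdgf (0.12) and Gm11346 (0.15), for Cebpb Gm9706 (0.16) and Slc9a3r1 (0.18), for Cebpa Ap3b1 (0.09) and Rc3h1 (0.09), for Runx1 Lsr (0.11) and Fam102b (0.12), and for Gfi1 Trim36 (0.10) and Commd8 (0.10). Over the 9 arrays without mouse 5, Rgl2 remained among the closest to Cebpd (0.07, after Med13l with 0.06), Rabac1 remained closest to Spi1 (0.17, followed by Plekhg3 with 0.22) and Lsr remained for Runx1 (0.11, after Cln6 with 0.07). The others were replaced, by Cep19 and Bcl6 (0.05 and 0.06) for Cebpa, Clec4d (0.13) and Pbx2 (0.14) for Cebpb, Mrpl34 and Ap4s1 (0.08 and 0.10) for Fli1, and Pot1a and Akap1 (both 0.09) for Gfi1. No factor was among the closest genes of another.

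Of 13 tested genes of the list of other C/EBP, Ets and partner factors, 10 varied more between mice, 3 without mouse 5 (Ddit3, Trib2 and Ets1) and 0 without mice 4 and 5 in the same limma test, against 66.9%, 19.5% and 0.671% of all genes. In mouse 5, Ets2 read 5.31 and Mxd1, a partner of Max that opposes Myc, read 8.13, against 9.63 to 10.68 and 11.74 to 11.99 in the rest of the mice, and Ets1 was highest in mouse 3, at 10.92, against 5.77 to 9.13 among the others. Ets1 is best known from lymphocytes. Of 22 tested blood cell factors of other kinds, 18 varied more, 8 without mouse 5 and 3 (Egr1, Egr2 and Myc) without mice 4 and 5. Klf4, a factor of monocytes, had mouse values of 7.22, 7.41, 9.85, 4.09 and 3.38 and pool values of 6.91 to 8.20. Junb, an AP-1 subunit, was at 5.47 in mouse 5 and at 9.52 or more in the rest of the mice. Egr1, an immediate early gene that also belongs to the monocyte programme, read 7.40 to 9.80 in the mice other than mouse 3 and 12.88 in mouse 3. The pool arrays had 11.72 to 12.60 for it.

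As a mean, genes that PU.1 is known to drive lay inside the technical spread of the pool in mouse 3. In mouse 5 their mean lay far below it. These were the mice with low Spi1. A mean can hide genes that move in opposite directions. In mouse 3, where Spi1 was 1.47 below the pool mean, the mean departure of 9 PU.1 target genes was 0.34. It was 0.21, 0.28 and 0.14 in mice 1, 2 and 4, and the pool arrays ran from -0.42 to 0.45. In mouse 5, where Spi1 was 2.32 below the pool mean, the mean departure of these genes was -2.84. All 9 target genes varied more between mice with mouse 5, 1 without it (Cybb, a subunit of the oxidase) and 0 without mice 4 and 5 in the same limma test, where 66.9%, 19.5% and 0.671% of all genes did. In mouse 5 the integrin gene Itgam was at 4.28, Cd68, a lysosomal protein, at 3.89 and the oxidase gene Ncf4 at 6.45. The lowest of the other mice had 8.29, 7.50 and 9.98 for these genes.

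Genes of the secondary granules, which depend on C/EBP epsilon, had a mean departure from the pool of -1.13, -1.39, 0.98, -0.67 and -2.96 in mice 1 to 5. Of 12 tested, 11 varied more between mice, 6 without mouse 5 and 5 without mice 4 and 5, against the same 66.9%, 19.5% and 0.671% of all genes. In mouse 3, Ltf (lactoferrin, which binds iron) read 12.56 and Chil3 (a chitinase-like protein) 12.22, against 5.97 to 7.41 and 6.15 to 7.48 among the other mice, and Lcn2, which withholds iron from bacteria, was lowest in mouse 5 at 5.36. The mean of the secondary granule genes was highest in mouse 3, though Lcn2 was highest in mouse 4 (12.43, against 11.87 in mouse 3). In mouse 3, Cebpa, Gfi1, Runx1, Cebpb and Cebpd stood at 0.19, 0.12, -0.09, -0.05 and -0.05 against the pool mean. Of the 7 factors, only Spi1 stood beyond the 10th to 90th percentile of all genes there. The primary granule and precursor list, which the early factors are known to drive, departed by -0.13, -0.15, 0.71, -0.37 and -0.46. Of its 6 tested genes, 2 varied more (Mpo and Ctsc), both also without mouse 5, and Mpo alone did without mice 4 and 5, where the shares of all genes were again 66.9%, 19.5% and 0.671%. In mouse 3, Mpo (myeloperoxidase) read 6.00 and Ctsc (the protease that activates the granule proteases) 10.74, against 4.13 to 4.90 and 6.11 to 8.84 among the other mice, and Srgn, the proteoglycan that packs them, read 12.03 to 12.73 in the 5 mice.

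Markers of some other blood cells also varied across the arrays. Spi1, Runx1 and Fli1 are also made in B cells, and Fli1 and Runx1 in platelets and their parents. The mean level of 6 B cell markers was 5.12 to 9.07 in the mice, lowest in mouse 4 and highest in mouse 3, and 7.39 to 8.22 in the pool, with Pax5 under the median of all probe sets. The mean level of the 6 platelet markers was 9.48 to 11.07 in the mice and 12.08 to 12.49 in the pool, without overlap, and lowest in mouse 3. Their part in the values of Spi1, Runx1 and Fli1 was not tested. The mean level of 5 monocyte markers was 6.72 to 7.35 in the mice and 7.53 to 7.86 in the pool. This gap came mostly from F13a1, whose mean in the mice minus the pool was -2.46. For Csf1r, Ccr2, Ms4a6c and Cx3cr1 the difference was -0.07, 0.22, -0.15 and -0.29. The mean level of 2 erythroid markers was 7.89 to 10.54 in the mice and 8.74 to 10.98 in the pool. The T cell list (5 of 6 measured) lay at 4.98 to 5.48 in the mice and 4.96 to 5.17 in the pool, with Cd3g and Cd8a under the median of all probe sets, and the NK cell list (4 of 4) at 4.79 to 5.43 and 4.98 to 5.15, with Ncr1 under it. Eosinophil markers (3 of 4 measured) lay at 4.20 to 5.01 and 4.46 to 4.91, with Prg2 and Epx under the median, and all 4 basophil and mast cell markers were under it. The precursor markers lay at 4.33 to 4.89 in the mice and 4.54 to 4.77 in the pool, with Ctsg, Kit and Cd34 under the median.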

How the data were processed

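Array signals of blood neutrophils from 5 individual mice and from 5 portions of 1 pool were analysed. The deposited table holds log2 signals of each probe set, and RMA is the tool that the submitters' processing notes name for them. The labelling protocol had 2 cycles of amplification. The RMA version, the background step, the genome build and whether the arrays were processed together are not given in the sources used here. Among 45141 probe sets, 28898 carried a single gene symbol and were used (104 were controls, 15588 had no symbol and 551 several). Of these, 28689 matched by gene ID to the RefSeq table of GRCm38.p6, which served for names and altered 0 symbols. Genes were tested where the mean over the 10 arrays exceeded 4.58.

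The variance of the mice was divided by that of the pool, which limma (version 3.58.1) moderated across genes along the mean level, and tested with a one-sided F test. Mean levels were tested two-sided with limma, using the spread among the mice as the error and counting each group as 5 mice, which assumes that the pool varies like a mean of 5 mice although it is 1 sample. The Benjamini-Hochberg threshold was 0.05. Both tests were tested on simulated data. R 4.3.3 with data.table version 1.17.8 and Python 3.11.15 with numpy 2.4.6, pandas 2.3.3 and matplotlib 3.10.9 were used. Of the 8 factors, promoters of 4 matched by symbol in the RefSeq table. All members, the closest genes over the 10 arrays and over 9, and the 3 most variable genes of each factor and target list were named; any other gene or probe set was picked with its values in view. The factors and lists were chosen with earlier results of these data known. Alternatives covered the filter, the normalization, the probe set, left-out arrays and the tests; testing every probe set on its own was added after seeing the data.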

Additional observations from a re-analysis of the deposited data

Results flagged for a closer look

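A sample far from the others of its group, by Dixon's criterion for 5 values (gap to the nearest value over the range above 0.71), was looked for in the mice and the pool for all 15 probe sets, 30 groups in all. There were 5 such samples, and about 5% of groups are marked by chance. Mouse 5 was far below the other mice in Cebpa, at 5.46 (ratio 0.769), in Cebpd, at 7.42 (ratio 0.802), and in the second Fli1 probe set, 1433512_PM_at, at 3.44 (ratio 0.87). In the pool, pool 1 was far above the others in that same Fli1 probe set, at 8.09 (ratio 0.782), and pool 4 in a Runx1 probe set, 1422865_PM_at, at 5.94 (ratio 0.752). No explanation was tested.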

How the results depend on the processing

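Over all genes, 7186 passed the variance test, and the calls for Cebpd, Fli1 and Spi1 rest on mouse 5. This count was 10952 with no filter, 4437 with a filter at the 75th percentile, 3760 with an ordinary F test, 14183 with every probe set on its own, and 72 without mice 4 and 5. Leaving out 1 array at a time gave 2092 (without mouse 5) to 7568. A Levene type test in limma called 0, with 153 genes at an unadjusted p under 0.05, and gave Cebpd, Fli1 and Spi1 adjusted p of 0.615, 0.615 and 0.627. The ordinary F test gave Spi1 an adjusted p of 0.0851. Without mice 4 and 5 the log2 variance ratio turned to -2.99 for Cebpd and -1.35 for Fli1. The probe set with the median mean gave Cebpb a log2 ratio of 3.08 (limma adjusted p = 0.00718). The number of genes with a mean difference was 0, and 0 to 187 without 1 array (4 without mouse 3, 187 without mouse 5), 448 without mice 4 and 5, 288 with an ordinary 2-group fit and 188 with a replicate block. The labels' numbers were not used as pairs in the main test. Correlations of same-numbered deviations were between -0.259 and 0.501, and 1 mouse of 5 matched its own number best. This check cannot decide whether same-numbered samples shared a processing step. No factor passed with or without the block. No alternative gave a factor a mean difference past the threshold. The lowest limma adjusted p was 0.477 with 1 probe set per gene. With every probe set on its own it was 0.276, and 0.103 without mouse 5, both for the Cebpb probe set 1427843_PM_at.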
